A study of Mus musculus with 8 samples.

Results

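The genes described here are 41 genes of protein folding and quality control in the endoplasmic reticulum (ER), the compartment in which secreted proteins are made. They were picked by name, as known parts of this machinery, from the 36333 genes of the table, at a time when earlier results of these data were known. All 41 were in the table. Of these, 40 reached 1 TPM in at least 4 of the 8 samples and were tested among 13080 genes. Ern2 did not reach this level. The members were sorted by role into 7 groups: 9 ER chaperones and co-chaperones, 4 protein disulfide isomerases, 2 lectin chaperones, 4 sensors and 3 transcription factors of the unfolded protein response (UPR), 9 genes of ER-associated degradation, and 10 genes of translocation and signal peptide cleavage.

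The RNA came from the ventral lobe of the prostate of 12-month-old males, 4 hSKP2-KI and 4 WT, and each mouse gave one library. The hSKP2-KI mice carry a P2A-linked human SKP2 coding sequence in exon 1 of the endogenous mouse probasin gene Pbsn on the X chromosome, so that SKP2, a subunit of a ubiquitin ligase, is made under the probasin promoter in prostate epithelium. Carrier females were bred with FVB/N males, and the WT mice carry no insert. The sample labels give the strain of all mice, hSKP2-KI and WT, as FVB/N. More than one founder line was made, and which line gave these samples is not stated in the sources used here. Values are TPM, in which reads are divided by transcript length and every library is scaled to the same total, so levels can be set side by side between genes but the number of reads behind them is unknown. Pbsn was at 115 ± 39.6 TPM in hSKP2-KI and 5984 ± 2447 TPM in WT prostates, and mouse Skp2 at 48.1 ± 10.1 and 1.75 ± 0.528 TPM (SD, n = 4 each), so no library went against its label. How reads from the human SKP2 coding sequence were assigned is not stated, and human SKP2 is not a row of the table, so the values listed for Skp2 in hSKP2-KI may hold human reads.

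The ventral prostate is an exocrine gland whose luminal cells release large amounts of a few proteins into the ducts. Such proteins enter the ER through the Sec61 channel, lose their signal peptide, and fold with the help of the chaperone BiP (Hspa5), the lectins calnexin and calreticulin, and protein disulfide isomerases. Chains that fail to fold are moved back to the cytosol and degraded. When unfolded chains build up, the sensors IRE1 (Ern1), PERK (Eif2ak3) and ATF6 start the UPR, whose transcription factors XBP1, ATF4 and ATF6 raise the transcription of chaperone and degradation genes.

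Several of these genes carry the ER stress response element in their promoters, the letters CCAAT followed after 9 bases by CCACG, through which ATF6 and XBP1 act together with a CCAAT-binding factor. RefSeq promoter windows (GRCm38.p6, 250 bases before to 50 after the start of each gene) were found for 33 of the 41 members, and both strands were searched. The element was in the windows of 9 members, which is 27.3% of 33. Over all genes with a window, 37 of 27025 held it, or 0.137%. The 9 members are Hspa5, Hsp90b1, Dnajc3 and Creld2 among the chaperones, the disulfide isomerase Pdia6, the lectins Calr and Canx, and Derl3 and Syvn1 of ER-associated degradation. Their elements are printed to show how alike these promoters are in the part that defines the element and how free they are between. Each is read in the direction that begins with CCAAT, with 8 bases on either side, and capitals mark the letters searched for.
Hspa5: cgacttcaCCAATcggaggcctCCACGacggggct
Hsp90b1, distal: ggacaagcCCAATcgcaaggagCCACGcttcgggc
Hsp90b1, proximal: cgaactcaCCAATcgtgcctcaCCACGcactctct
Calr: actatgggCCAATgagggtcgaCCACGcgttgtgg
Canx: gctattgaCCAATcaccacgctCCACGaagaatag
Pdia6: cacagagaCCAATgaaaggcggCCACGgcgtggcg
Creld2: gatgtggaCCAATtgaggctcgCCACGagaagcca
Derl3: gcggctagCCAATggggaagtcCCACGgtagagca
Dnajc3: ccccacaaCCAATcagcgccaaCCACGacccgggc
Syvn1: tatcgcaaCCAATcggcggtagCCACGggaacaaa
The printed stretches lie, in this order, at chr2:34772017-34772051 (plus strand), chr10:86705630-86705664 (minus), chr10:86705525-86705559 (plus), chr8:84847067-84847101 (plus), chr11:50325792-50325826 (minus), chr12:17266483-17266517 (plus), chr15:88819512-88819546 (minus), chr10:75893234-75893268 (minus), chr14:118937819-118937853 (plus) and chr19:6046524-6046558 (plus).

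The element reads with the gene in Hspa5, Canx, Pdia6, Dnajc3, Syvn1 and the distal copy of Hsp90b1, and against it in Calr, Creld2, Derl3 and the proximal copy of Hsp90b1. Its first base in the window, counted along the gene, lay at positions from -212 (Hsp90b1, distal) to -44 (Syvn1) relative to the start site. The Creld2 copy also lies in the window of Alg12, a mannosyltransferase gene that faces it, and the Calr copy in the window of 1700122E12Rik. A shorter second form, ATTGG followed after 1 base by CCACG, was in the windows of 2 members, Herpud1 and Dnajb11, and of 12 of the 27025 genes (0.0444%). In these 2 genes the letters stand as follows, with the same flanks.
Herpud1: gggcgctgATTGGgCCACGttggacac
Dnajb11: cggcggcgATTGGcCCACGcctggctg
The Herpud1 stretch is chr8:94386369-94386395 and that of Dnajb11 chr16:22857844-22857870, both on the plus strand. The UPR element TGACGTGG was in 0 of the 33 windows and in 0.714% of all genes, and the C/EBP-ATF element TGATGNAA, read by ATF4, was in 1 (Herpud1) and in 4.51% of all genes. A match describes the letters of a window and is no proof of a bound site.

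The upstream window of Hspa5 shows the element in its place, close to the start of the gene (chr2:34772090-34776529). The 250 bases before the start, chr2:34771840-34772089 on the plus strand, read as follows, with the searched letters in capitals.
Hspa5 promoter: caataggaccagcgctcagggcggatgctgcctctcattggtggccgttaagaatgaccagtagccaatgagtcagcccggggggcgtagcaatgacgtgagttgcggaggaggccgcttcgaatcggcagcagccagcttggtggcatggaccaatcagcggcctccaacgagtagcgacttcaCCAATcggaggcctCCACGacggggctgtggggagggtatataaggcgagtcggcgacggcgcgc

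Across the 41 genes, most chaperones and disulfide isomerases had higher TPM in hSKP2-KI prostates, while no sensor and 1 of 3 transcription factors of the UPR passed the test. With TPM as deposited, 19 of the 40 tested members were higher in hSKP2-KI (limma, adjusted p under 0.05) and 0 were lower. Log2 changes are on the log2(TPM + 1) scale, hSKP2-KI against WT. These counts stand beside a wide background: 32.7% of all 13080 genes were called higher and 1.23% lower. All 8 TPM values were separated by genotype in 15 members, all higher in hSKP2-KI, against 34.0% of all genes higher and 1.03% lower.

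TPM of a library add up to a fixed total. The 3 most abundant secretory transcripts, Sbp, Sbpl and Spink1, took 32.1% to 34.3% of it in hSKP2-KI and 40.4% to 45.8% in WT, which leaves more of the total to all other genes. The median log2 change over the genes tested was 0.23. Median-ratio scaling, which sets the typical gene equal between libraries, brought that median to -0.01. After it, 2 members were called higher, Manf and Pdia4, against 6.92% of all genes, and 0 were called lower, against 4.25%. Values separated by genotype in 6 members on the higher side, beside 10.3% of all genes, and in 4 members on the lower side (P4hb, Sec61a1, Ssr4 and Spcs3), beside 8.91%. The median member stood at a log2 change of 0.24 with TPM as deposited and -0.02 after scaling, close to the median gene on both. What set the 41 genes apart by role was therefore read as the distance of each group from the median gene. The 2 calls after scaling were lost when any of 6 of the 8 libraries was left out, all but WT replicate 2 and hSKP2-KI replicate 2.

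**Figure D1:**
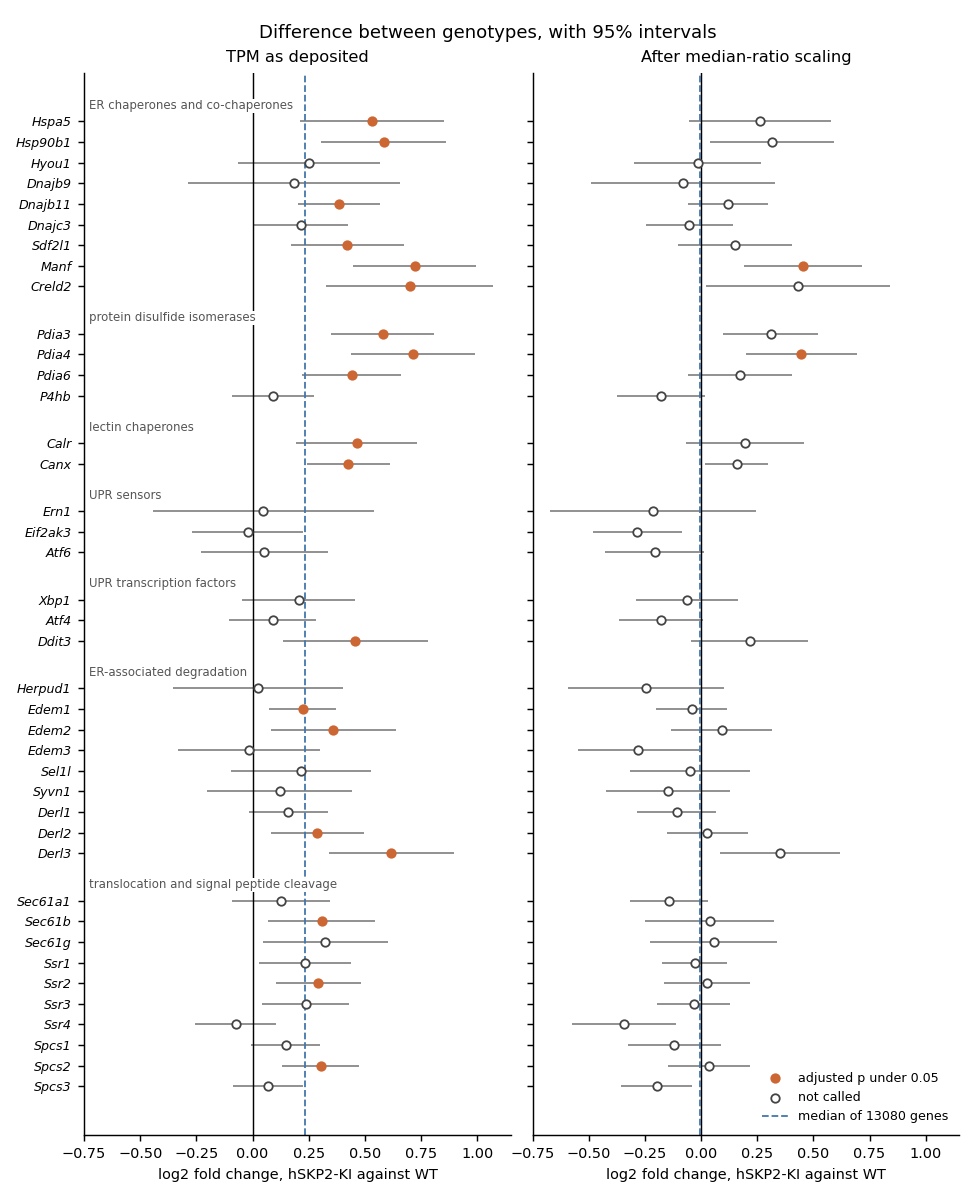
Log2 fold change of hSKP2-KI against WT on the log2(TPM + 1) scale for the 40 tested members, grouped by role, with 95% intervals from limma, for TPM as deposited (left) and after median-ratio scaling (right). Filled points have an adjusted p under 0.05, 19 on the left and 2 on the right (Manf and Pdia4), and the dashed line is the median of all 13080 genes, 0.23 on the left and -0.01 on the right.

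The 9 chaperones and co-chaperones stood above the median gene as a group, with a median log2 change of 0.42 as deposited and 0.15 after scaling. As deposited, 6 of the 9 were higher in hSKP2-KI and 0 lower. The largest change was in Manf, a small secreted ER protein that binds BiP. Its TPM was 133, 174, 114 and 143 in the WT mice 1 to 4 and 269, 211, 223 and 224 in the hSKP2-KI mice 1 to 4. Every hSKP2-KI mouse lay above every WT mouse, on both scales. The log2 change of Manf was 0.72 (SE 0.12, limma adjusted p = 0.00328) as deposited and 0.45 (SE 0.12, adjusted p = 0.0366) after scaling.

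Creld2, another secreted ER protein of disulfide chemistry, changed by nearly as much, with one mouse far above the rest. Its TPM was 184, 206, 142 and 173 in WT and 413, 263, 254 and 237 in hSKP2-KI. The genotypes did not overlap, and the highest value was that of hSKP2-KI replicate 1. The log2 fold change was 0.70 (SE 0.17, adjusted p = 0.0122), and between 0.52 and 0.79 with any single library left out. After median-ratio scaling it was 0.43 and no longer passed (adjusted p = 0.158).

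Hspa5 encodes BiP, the Hsp70 of the ER and the fourth most abundant member in WT. Its TPM was 729.9, 1110.3, 728 and 788 in WT and 1364, 1167, 1282 and 995 in hSKP2-KI. WT replicate 2 was well above the other WT mice and above hSKP2-KI replicate 4, so the genotypes overlapped. Hspa5 was higher by a log2 change of 0.53 (SE 0.15, adjusted p = 0.0203), a value that lost its call in 2 of the 8 fits with 1 library left out (highest adjusted p = 0.0609), without the filter on low values (adjusted p = 0.0594) and after scaling (0.26, adjusted p = 0.265).

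Hsp90b1, the Hsp90 of the ER (GRP94), had the same direction with clearer separation. Its TPM was 379.8, 473, 334 and 452 in WT and 732, 538, 591 and 591 in hSKP2-KI. No values overlapped on either scale. The log2 fold change was 0.58 (SE 0.13, adjusted p = 0.00792) as deposited and 0.31 (adjusted p = 0.13) after scaling.

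The remaining chaperone genes were split. Dnajb11, a J-domain partner of BiP, was at 51.5, 58.8, 48.0 and 53.9 TPM in WT and at 74.0, 68.1, 72.5 and 63.5 TPM in hSKP2-KI, a log2 change of 0.38 (adjusted p = 0.00812). Sdf2l1, which works in a complex with Dnajb11, was at 211, 258, 193 and 232 TPM in WT and at 359.8, 270.1, 296 and 273 TPM in hSKP2-KI, a log2 change of 0.42 (adjusted p = 0.0192). Both were separated by genotype as deposited and overlapped after scaling, where neither was called. Hyou1 (an Hsp110-like exchange factor of BiP), Dnajb9 and Dnajc3 (J-domain partners of BiP) did not pass the test, with log2 fold changes of 0.25, 0.18 and 0.22. Dnajb9 varied most among the WT mice, from 36.3 TPM in replicate 1 to 92.4 TPM in replicate 2, while the 4 hSKP2-KI mice lay between 63.6 and 69.5 TPM.

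Disulfide isomerases form and rearrange disulfide bonds in new chains, and 3 of the 4 rose with TPM as deposited. Pdia4 was at 82.9, 119, 80.7 and 96.1 TPM in WT and at 176, 136, 157 and 149.6 TPM in hSKP2-KI. The genotypes were separate on both scales, and the log2 fold change was 0.71 (SE 0.13, adjusted p = 0.00359) as deposited and 0.45 (SE 0.11, adjusted p = 0.0315) after scaling. Pdia3 (ERp57), which works on glycoproteins held by calnexin and calreticulin, was at 378, 474, 350.3 and 431 TPM in WT and at 638, 539, 631 and 624 TPM in hSKP2-KI. It was separate on both scales too, with a log2 change of 0.58 (SE 0.10, adjusted p = 0.0038) as deposited and 0.31 (adjusted p = 0.0634) after scaling.

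Pdia6 was at 855, 924, 768 and 994 TPM in WT and at 1287, 1098, 1123 and 1293 TPM in hSKP2-KI, with no overlap and a log2 change of 0.44 (SE 0.10, adjusted p = 0.00982). It was not called after scaling (0.17, adjusted p = 0.324). P4hb, the founding disulfide isomerase and the most abundant of the 41 genes, did not move with the other 3. Its TPM was 1259, 1480.3, 1321 and 1394 in WT and 1507, 1491, 1454 and 1354 in hSKP2-KI. These values overlapped as deposited, with a log2 change of 0.09 (95% interval -0.09 to 0.28, adjusted p = 0.384). After scaling all 4 hSKP2-KI mice lay below the 4 WT mice, at -0.18 (adjusted p = 0.217).

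The lectin chaperones hold glycoproteins during folding, Canx as a membrane protein and Calr in the ER lumen. Canx was at 126, 158, 131 and 146 TPM in WT and at 182, 179.6, 195 and 197 TPM in hSKP2-KI, separate on both scales. Its log2 fold change was 0.43 (SE 0.08, adjusted p = 0.00554) as deposited and 0.16 (adjusted p = 0.133) after scaling. Calr was at 872, 1113, 853 and 1005 TPM in WT and at 1391, 1066, 1432 and 1416 TPM in hSKP2-KI. Here hSKP2-KI replicate 2 fell below WT replicate 2, and the log2 fold change was 0.46 (adjusted p = 0.0169) as deposited and 0.19 (adjusted p = 0.326) after scaling.

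**Figure D2:**
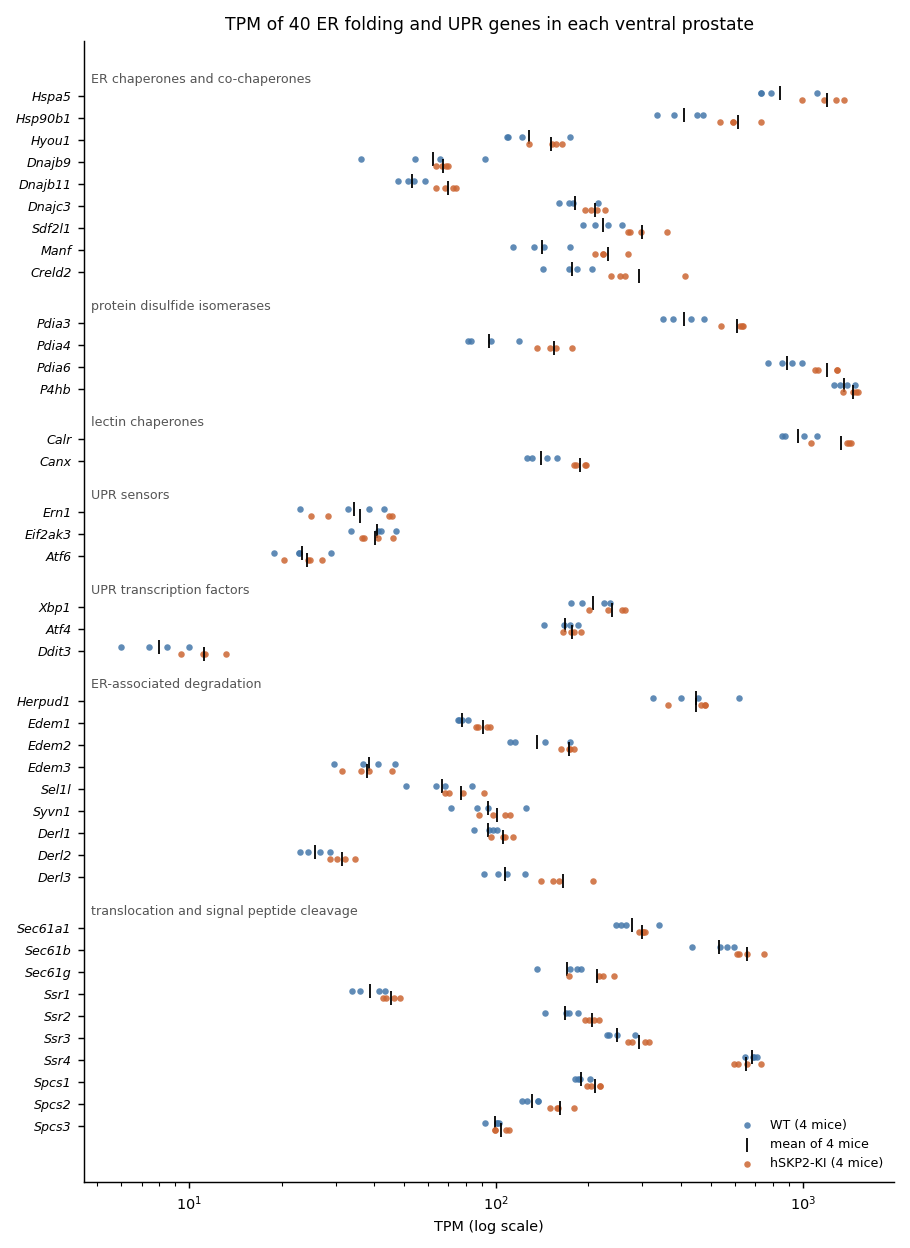
TPM of the 40 tested members in each of the 8 mice on a log axis, grouped by role, with WT in blue, hSKP2-KI in orange and a bar at the mean of 4 mice. Chaperone and disulfide isomerase genes such as Manf, Pdia3 and Pdia4 show separate clouds by genotype, while the sensors Ern1, Eif2ak3 and Atf6 overlap fully.

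None of the 3 tested sensors was called with all 8 libraries in the fit by genotype alone, either as deposited or after scaling. Ern1, the kinase and RNase IRE1, was at 23.1, 43.2, 38.6 and 33.0 TPM in WT and at 25.0, 28.4, 45.7 and 44.7 TPM in hSKP2-KI, with a log2 change of 0.05 (95% interval -0.45 to 0.54, adjusted p = 0.874). Eif2ak3, the kinase PERK, was at 33.7, 47.2, 42.1 and 41.2 TPM in WT and at 36.7, 41.3, 46.0 and 37.1 TPM in hSKP2-KI, with a log2 change of -0.02 (95% interval -0.27 to 0.22, adjusted p = 0.884). Atf6, a membrane-bound transcription factor that is cut free in the Golgi, was at 18.9, 29.0, 22.8 and 22.8 TPM in WT and at 20.3, 24.7, 27.2 and 24.4 TPM in hSKP2-KI, with a log2 change of 0.05 (95% interval -0.23 to 0.34, adjusted p = 0.751).

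Both genotypes covered the same range in each sensor. The intervals still allow changes of up to 0.54 for Ern1, which varied about as much within a genotype as between mice of different genotype. After scaling the values were -0.21, -0.28 and -0.21, with adjusted p of 0.547, 0.0668 and 0.209. Eif2ak3 was called lower after scaling when hSKP2-KI replicate 3 was left out (-0.35, adjusted p = 0.0329), and also with the replicate block. Ern2, the IRE1 form of mucosal epithelia, was listed at 0 in WT replicates 1, 3 and 4 and at 0.350 TPM in WT replicate 2, and at 0.114, 0.0625, 0.0784 and 0.739 TPM in hSKP2-KI, levels too low to be compared.

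Among the transcription factors, only Ddit3 passed the test. Ddit3 (CHOP), which acts downstream of PERK and ATF4, was the least abundant tested member, at 6.0, 10.0, 7.40 and 8.45 TPM in WT and at 11.1, 13.1, 9.38 and 11.3 TPM in hSKP2-KI. WT replicate 2 lay above hSKP2-KI replicate 3. The log2 fold change was 0.46 (SE 0.15, adjusted p = 0.035), but it passed in only 2 of the 8 fits with a library left out, and after scaling it was 0.22 (adjusted p = 0.266).

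Xbp1 was at 176, 235, 191 and 225 TPM in WT and at 257, 263, 232 and 201 TPM in hSKP2-KI, with a log2 change of 0.21 (95% interval -0.05 to 0.46, adjusted p = 0.166). Gene-level TPM does not show whether the Xbp1 transcript was spliced by IRE1, the step that makes the active factor. Atf4 was at 143, 166, 185 and 174 TPM in WT and at 189, 176, 165 and 180.1 TPM in hSKP2-KI, with a log2 change of 0.09 (95% interval -0.10 to 0.28, adjusted p = 0.42). ATF4 is controlled mainly at translation, which TPM does not measure. Both genes overlapped between genotypes.

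Genes of ER-associated degradation were closer to the median gene, at a median log2 change of 0.22 as deposited and -0.05 after scaling. As deposited 4 of 9 were higher and 0 lower. Derl3, a membrane protein of the export channel, stood out. It was at 91.4, 124, 102 and 109 TPM in WT and at 206, 159.9, 139.9 and 153 TPM in hSKP2-KI, separate on both scales. Its log2 fold change was 0.62 (SE 0.13, adjusted p = 0.00638) as deposited and 0.35 (adjusted p = 0.0886) after scaling.

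Its relatives changed less. Derl2 was at 24.4, 28.8, 22.9 and 26.6 TPM in WT and at 32.2, 34.8, 30.3 and 28.9 TPM in hSKP2-KI, with a log2 change of 0.29 (adjusted p = 0.0376) as deposited and 0.03 after scaling. Derl1 had a log2 change of 0.16 (adjusted p = 0.135). The difference between Derl3 and either relative was not tested.

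Of the mannosidase-like genes that mark glycoproteins for degradation, Edem1 was at 75.1, 81.0, 77.7 and 75.7 TPM in WT and at 93.5, 87.5, 95.2 and 86.2 TPM in hSKP2-KI, a log2 change of 0.22 (adjusted p = 0.0284). That is the shift of the median gene, and after scaling Edem1 stood at -0.04. Edem2 was called at 0.36 (adjusted p = 0.0484), kept the call in 1 of the 8 fits with a library left out, and overlapped between genotypes. Edem3 was at -0.02 (adjusted p = 0.928). Herpud1, which holds the degradation complex together, ranged from 325 to 619 TPM in WT and from 365 to 479.8 TPM in hSKP2-KI, with a log2 change of 0.02 (95% interval -0.36 to 0.40, adjusted p = 0.922). Sel1l and Syvn1, the core of the ubiquitin ligase HRD1, were at 0.22 and 0.12, and neither passed.

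The 10 translocation and signal peptide cleavage genes moved with the median gene, at a median log2 change of 0.23 as deposited and -0.03 after scaling. As deposited 3 rose and 0 fell. Sec61b, a small subunit of the Sec61 channel, was at 596, 535, 436 and 565 TPM in WT and at 745, 610.2, 618 and 657 TPM in hSKP2-KI, with a log2 change of 0.31 (adjusted p = 0.0482) that passed in 1 of the 8 fits with a library left out. Ssr2, of the translocon-associated complex, was at 169.6, 185, 144 and 173 TPM in WT and at 216, 209, 201 and 195 TPM in hSKP2-KI, with a log2 change of 0.29 (adjusted p = 0.0248). Spcs2, of the signal peptidase, was at 126, 137, 122 and 137 TPM in WT and at 179, 158, 159 and 149.5 TPM in hSKP2-KI, with a log2 change of 0.30 (adjusted p = 0.0156).

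All 3 were separated by genotype as deposited. After scaling they lay between 0.02 and 0.04, at the level of the median gene. Ssr4, another subunit of the translocon-associated complex, had lower values. Its log2 fold change was -0.08 (adjusted p = 0.464) as deposited and -0.35 (adjusted p = 0.0596) after median-ratio scaling, and it was called lower after quantile normalization (-0.34, adjusted p = 0.0104) and on TPM rescaled without the 20 most abundant genes (-0.32, adjusted p = 0.0269). The other 6 genes of the group, Sec61a1, Sec61g, Ssr1, Ssr3, Spcs1 and Spcs3, were not called on the deposited scale, with log2 fold changes from 0.07 to 0.32.

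The promoter letters printed above gave a second way to sort the members, one that uses no expression value but overlaps with the sorting by role. All members with the element except Derl3 and Syvn1 are chaperone, disulfide isomerase or lectin genes. Of the 9 members with the ER stress response element, 7 were called higher in hSKP2-KI as deposited, beside 10 of the 24 tested members whose window lacked it. Over all tested genes, 32.7% were called higher. The medians of the log2 fold changes were 0.46 and 0.23 as deposited, and 0.19 and -0.04 after scaling. Creld2, Derl3, Hsp90b1, Hspa5, Calr, Pdia6 and Canx were the 7 called, and Dnajc3 and Syvn1, which carry the same letters, were not. None of the 7 was called after median-ratio scaling, after quantile normalization or without the 20 most abundant genes. Manf, which was called under each of these scalings, had no window. Pdia4 and Pdia3, among the members with the largest changes, had no match in their windows. Of the 10 tested genes outside the 41 that hold the element, 5 were called higher, with a median of 0.34. Among them are Xlr3a, Xlr3b and Xlr3c, which are close copies of each other. Of the members with the second form, Dnajb11 was called and Herpud1 was not. Among chaperone, disulfide isomerase and lectin genes whose window lacked the first element, Dnajb11, Sdf2l1, Pdia3 and Pdia4 were called as deposited. Dnajb9 and P4hb were not. These counts describe the members, the split by promoter letters was not tested, and it cannot be told apart from the split by role.

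**Figure D3:**
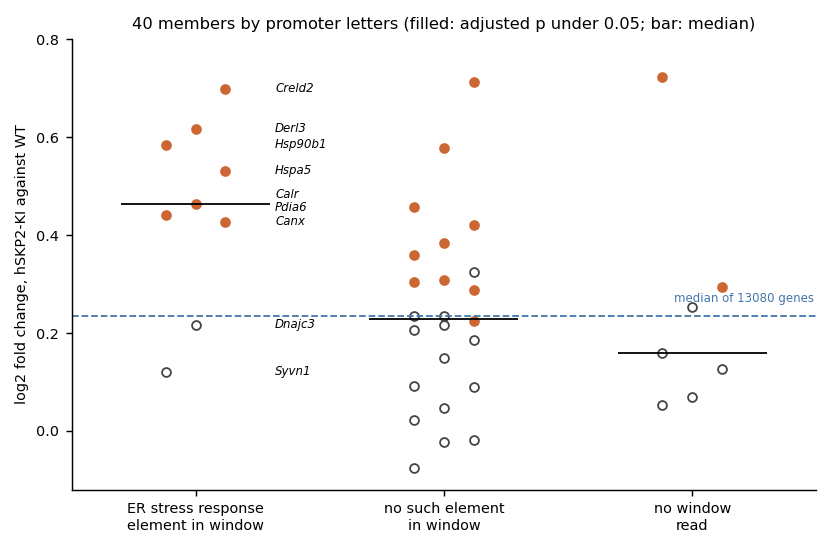
Log2 fold change of hSKP2-KI against WT, TPM as deposited, for the 40 tested members split into those with the ER stress response element in the promoter window (9), those with a window but without the element (24) and those for which no window was read (7). Filled points have an adjusted p under 0.05, bars are medians, and the dashed line is the median of all 13080 genes at 0.23. In the first group 7 of 9 points lie well above the dashed line. Most genes of that group are chaperone, disulfide isomerase or lectin genes, so this split overlaps with that by role.

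Libraries of the same genotype also differed in these genes. WT replicate 2 was the highest of the 4 WT mice in 33 of the 40 tested members (82.5%), and in 49.7% of all tested genes. The lowest WT value was in replicate 1 for 20 members and in replicate 3 for the other 20. Over all tested genes it was in replicate 1 for 56.4% and in replicate 3 for 28.7%. Among the hSKP2-KI mice, replicate 1 was the highest in 18 members (45.0%) and in 17.8% of all tested genes. The count of 19 members called higher was 12 without WT replicate 1 or without WT replicate 3, and 23 without WT replicate 2. Of the 19, 10 were called in all 8 fits with 1 library left out: Hsp90b1, Dnajb11, Manf, Creld2, Pdia3, Pdia4, Pdia6, Canx, Derl3 and Spcs2. The other 9 were called in 1 to 7 of them, with Sec61b and Edem2 at 1 and Ddit3 and Derl2 at 2.

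The secretory load was taken as the share of TPM in 10 known products of the ventral prostate. Sbp, Sbpl and Spink1, the spermine-binding proteins and a secreted protease inhibitor, made up most of it. The 10 products held 47.3%, 44.1%, 48.6% and 44.9% of TPM in WT mice 1 to 4 and 36.1%, 35.5%, 38.7% and 37.1% in hSKP2-KI mice 1 to 4. The share was lower in each hSKP2-KI mouse than in any WT mouse, and its mean fell by 9.35 percentage points (p = 0.0286 in an exact permutation test, two-sided, where no smaller p is possible with 4 mice against 4). Spink1 fell by 0.76 on the log2 scale (limma adjusted p = 0.0219) and Azgp1, a zinc-binding glycoprotein, by 0.93 (adjusted p = 0.00321), both as deposited. After median-ratio scaling Spink1 was at -1.03 and not called (adjusted p = 0.0788), while Azgp1 was called lower (-1.20, adjusted p = 0.00416). Sbp and Sbpl had log2 fold changes of -0.25 and -0.40 and did not pass in the limma fit (adjusted p = 0.398 and 0.112), although all hSKP2-KI values lay below all WT values. Pbsn, the locus of the insert, fell by 5.66.

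Not all products were lower. Msmb, a secreted microseminoprotein, was at 4867 ± 844 TPM in WT and 9664 ± 2791 TPM in hSKP2-KI (SD, n = 4), a log2 change of 0.96 (adjusted p = 0.00599). The defensin gene Defb50 and the protease inhibitor gene Spink5 were higher by 0.57 and 0.55 (adjusted p = 0.021 and 0.0235). After scaling none of these 3 was called. Spinkl and Wfdc15b stayed below 3 TPM in every mouse and were not tested.

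Set against this load, the folding genes were higher in every hSKP2-KI mouse. The 15 chaperone, disulfide isomerase and lectin genes summed to 5579, 7029, 5386 and 6276 TPM in WT and to 8829, 7451, 8170.3 and 7809 TPM in hSKP2-KI. Per 1000 TPM of secretory products, that is 11.8, 15.95, 11.1 and 14.0 TPM in WT and 24.5, 21.0, 21.1 and 21.0 TPM in hSKP2-KI, a ratio of means of 1.66. The 10 translocation genes, by the same measure, had a ratio of 1.40, and all genes outside both lists a ratio of 1.47. Set against all genes outside both lists, the folding genes overlapped between genotypes, at 10.7 to 12.8 TPM per 1000 in WT and 11.8 to 14.1 TPM per 1000 in hSKP2-KI. None of these ratios was tested against another.

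The ratio of folding to translocation transcripts within a library does not depend on a scaling by a single factor per library. This ratio was 2.16, 2.62, 2.35 and 2.42 in WT and 2.92, 2.71, 2.92 and 2.79 in hSKP2-KI, with no overlap. The ratio of folding to ER-associated degradation transcripts did overlap, at 5.08 to 6.35 in WT and 5.91 to 7.02 in hSKP2-KI. Neither ratio had been planned, and neither was tested. The summed TPM are led by Hspa5, Pdia6, Calr and P4hb, and no test was run on sums over the members. No correlation of share and sums is given, since the genotypes form separate groups in both and each holds only 4 mice.

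**Figure D4:**
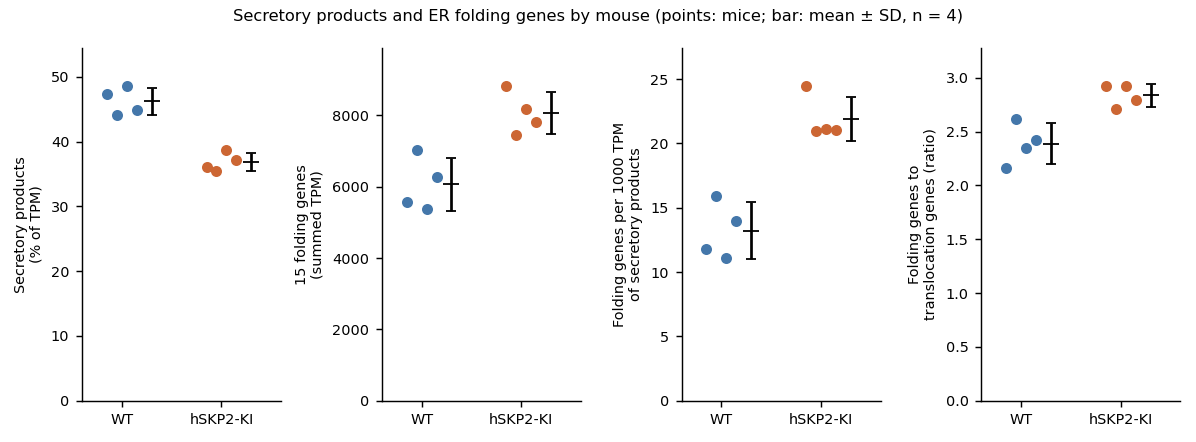
Percent of TPM in 10 secretory products, summed TPM of the 15 folding genes, the same sum per 1000 TPM of secretory products, and the ratio of folding to translocation genes, for each of 4 WT and 4 hSKP2-KI mice, with mean ± SD. The share of products is lower in all hSKP2-KI mice (35.5% to 38.7%, against 44.1% to 48.6%), and both ratios are higher in all of them. Per 1000 TPM of products, the ratio of means was 1.66 for folding genes and 1.47 for all genes outside the products and members. The ratio of folding to ER-associated degradation genes, not drawn, overlapped between genotypes.

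Other genes of the same pathways were read from 7 lists of 181 genes, of which 176 were tested. As deposited 50 were higher and 5 lower, and after scaling 3 and 14. Over all 13080 genes the shares were 32.7% higher and 1.23% lower as deposited, and 6.92% and 4.25% after scaling. The counts of each list stand beside these same shares. Among 28 tested genes of other ER folding enzymes, 11 were higher and 0 lower, with a median log2 change of 0.23, that of the median gene. Only Erp44 among them was called on both scales. Erp44, which retains disulfide enzymes in the early secretory pathway, was at 80.0, 122, 86.8 and 106 TPM in WT and at 152, 137, 155 and 166 TPM in hSKP2-KI, a log2 change of 0.64 (adjusted p = 0.00496) as deposited and 0.37 (adjusted p = 0.0349) after scaling. Of 15 tested further UPR regulators, 5 were higher and 0 lower, with a median of 0.23, and none was called after scaling.

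The 22 target genes of PERK and ATF4 stood below the median gene, with a median log2 change of 0.08 as deposited and -0.18 after scaling. As deposited 3 were higher and 3 lower, and after scaling 1 was higher and 6 were lower. Cth, a cysteine-forming enzyme, was at 9.44, 9.92, 10.7 and 10.3 TPM in WT and at 2.51, 2.95, 3.68 and 2.05 TPM in hSKP2-KI, and fell by 1.56 on the log2 scale (adjusted p = 0.000104). Nupr1, a stress-induced chromatin protein, was at 780.4, 1046, 1035 and 637 TPM in WT and at 449.9, 564, 411 and 670.4 TPM in hSKP2-KI, and fell by 0.74 (adjusted p = 0.0143), with hSKP2-KI replicate 4 above WT replicate 4. Asns, asparagine synthetase, was at 67.8, 60.7, 84.6 and 82.6 TPM in WT and at 59.5, 59.2, 57.5 and 50.5 TPM in hSKP2-KI, and fell by 0.37 (adjusted p = 0.0289).

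These 3 genes were also lower after scaling. Slc7a11, the cystine importer, was higher on both scales: it was at 0.344, 0.399, 0.539 and 0.298 TPM in WT and at 1.18, 1.89, 1.85 and 3.37 TPM in hSKP2-KI, a log2 change of 1.097 (adjusted p = 0.00359). The classical stress targets Atf3, Trib3, Chac1 and Ppp1r15a had log2 fold changes of -0.04, 0.08, 0.12 and 0.08, and none was called. They were picked for naming after their values were seen.

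Among 34 tested genes of translocation and N-glycosylation outside the 41, 12 were higher and 1 lower, with a median of 0.22. The one that fell was Sec11c, a catalytic subunit of the signal peptidase to which Spcs1, Spcs2 and Spcs3 belong. It was at 563, 522, 536 and 559.9 TPM in WT and at 373, 337, 332 and 322 TPM in hSKP2-KI, a log2 change of -0.68 (SE 0.07, adjusted p = 0.00044) as deposited and -0.95 (adjusted p = 0.000772) after scaling. The paralog Sec11a, named after its values were seen, was at 79.3, 93.7, 72.1 and 86.5 TPM in WT and at 112, 113, 108 and 111 TPM in hSKP2-KI, a log2 change of 0.42 (adjusted p = 0.006) as deposited that did not pass after scaling (0.15, adjusted p = 0.194). Within a library, where scaling by a single factor cancels, Sec11c was 5.57 to 7.43 times the TPM of Sec11a in WT and 2.91 to 3.32 times in hSKP2-KI.

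Of 27 tested genes in other ER-associated degradation, 5 were higher and 1 lower, with a median of 0.12. The lower one was Svip, an inhibitor of the pathway that binds VCP and Derlin-1, at 37.0, 37.0, 43.3 and 42.5 TPM in WT and at 30.8, 29.6, 33.2 and 29.0 TPM in hSKP2-KI. It fell by 0.37 (adjusted p = 0.00986) as deposited and by 0.63 (adjusted p = 0.00416) after scaling, with no overlap on either scale.

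**Figure D5:**
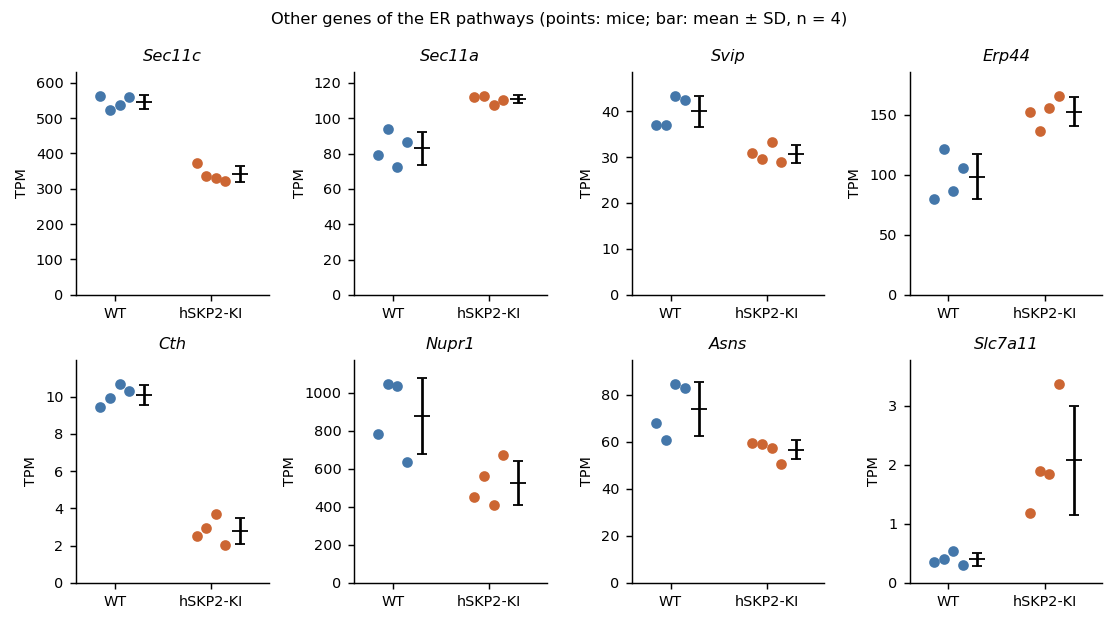
TPM of 8 genes of the ER pathways outside the 41, for 4 WT and 4 hSKP2-KI mice, with mean ± SD. Sec11c, Svip, Cth and Asns lie lower in every hSKP2-KI mouse than in any WT mouse, Sec11a, Erp44 and Slc7a11 lie higher, and Nupr1 overlaps.

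The tissue is a mixture of cells, and in bulk samples fewer cells of a type cannot be told apart from less RNA per cell. Luminal epithelial markers, which mark the secretory cells, had log2 fold changes from -0.13 (Hoxb13) to 0.37 (Epcam), with a median of 0.29 and 3 of 7 called higher, and their summed TPM ranged from 2377 to 2578 in WT and from 2722 to 2910.4 in hSKP2-KI. All 6 fibroblast markers were higher, by 0.61 to 1.81, with summed TPM of 419.9 to 605 in WT and 759 to 1333 in hSKP2-KI. All 5 smooth muscle and 5 proximal luminal markers were higher as well, with medians of 0.78 and 1.86, and so were 4 of 6 leukocyte and macrophage markers (median 0.83) and 3 of 4 endothelial markers (median 0.68). As deposited, 32.7% of all genes were called higher, and the median gene stood at 0.23. After scaling 4 of 5 proximal luminal, 2 of 6 fibroblast, 2 of 5 smooth muscle and 1 of 4 endothelial markers were called higher. None of the 7 luminal epithelial or the 6 leukocyte and macrophage markers was, beside 6.92% of all genes. The luminal median was 0.02 after scaling. As deposited the median of each list was higher in hSKP2-KI, as for the folding genes. The part of these markers in the values above was not tested.

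Other secretory cells were looked for by their markers. Of the mucosal secretory list, 3 of 5 tested genes were higher as deposited, beside 32.7% of all genes, with a median log2 change of 1.20. That median is the value of Tff3, which was not called (limma adjusted p = 0.358) and overlapped between genotypes. Spdef, the other tested gene not called, had a log2 change of -0.002 as deposited (adjusted p = 0.986) and -0.26 after scaling. Muc5b reached at most 0.00988 TPM in any mouse and was not tested. Fcgbp and Muc19, genes of mucus proteins, were called on both scales. Fcgbp was at 4.06 ± 0.473 TPM in WT and 29.0 ± 6.26 TPM in hSKP2-KI, and Muc19 at 5.49 ± 4.88 and 33.5 ± 18.5 TPM. Agr2, an ER disulfide isomerase of mucus-producing cells, was called as deposited only, with 559.8 ± 65.7 TPM in WT and 789 ± 106 TPM in hSKP2-KI (SD, n = 4). None of the 3 tested plasma cell markers was called, with summed TPM of the list from 9.13 to 51.9 in WT and from 28.4 to 42.4 in hSKP2-KI. Igkc, Ighm and Igha were listed at 0 in all 8 samples. Jchain was at 8.27 to 45.7 TPM in WT and at 25.3 to 39.8 TPM in hSKP2-KI. The 0 values therefore do not show that plasma cells were absent. The 7 seminal vesicle genes summed to less than 1 TPM in every sample. As deposited, basal markers gave 1 call in 3, and immediate early genes 1 in 7 (Dusp1, 0.89), beside 32.7% of all genes called higher. Neither list held a call after scaling.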

How the data were processed

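RNA of ventral prostates was sequenced for 4 mice of each genotype, hSKP2-KI and WT, all separate animals. The authors mapped trimmed reads with CLC Genomics software and deposited TPM per gene. The submitters' processing notes name mm10 and GRCm38. Counting options are not given in the sources used here, so reads from overlapping genes or near-identical copies cannot be told apart. The table holds 0 columns of other samples. Read counts cannot be had from TPM. The methods give a target depth for the libraries, but the reads behind each value are unknown, and no counting interval is given.

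Groups were taken from the labels. The 13080 genes that reached 1 TPM in 4 or more of the 8 samples were fitted as log2(TPM + 1) in limma 3.58.1 (R 4.3.3), using a mean-variance trend and Benjamini-Hochberg adjustment over all tested genes (threshold 0.05). The pseudocount of 1 understates changes of low genes. Median-ratio size factors were 0.828 to 0.987 in WT and 1.07 to 1.12 in hSKP2-KI. Shares were compared by a two-sided exact permutation test over 70 assignments. Promoter windows were RefSeq GRCm38.p6. Ern2, Derl1, Spcs3, Ssr2, Sec61a1, Manf, Atf6 and Hyou1 had none here. The fit was tested on simulated data. Python 3.11.15 and matplotlib 3.10.9 were used.

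The 41 members and all lists were chosen with earlier results of these data known. Members given in full were those called on either scale without overlap on that scale, plus Hspa5, Hsp90b1, Xbp1, Atf4, Ddit3, Ern1, Ern2, Eif2ak3, Atf6 and Derl3. P4hb and Calr were given in full outside this rule, after their values were seen. From other lists, genes called on both scales were named, up to 3 per direction. Of these lists, 8 genes were matched through older symbols by Entrez identifier. Alternatives were a pseudocount of 0.1, no filter, median-ratio scaling, quantile normalization, a replicate block, TPM rescaled without the 20 most abundant genes, and each library left out. Counts over the other pathway lists, and the fits with libraries left out after scaling, were added after seeing the data.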

Additional observations from a re-analysis of the deposited data

Results flagged for a closer look

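Single mice stood apart from the other 3 of their genotype, by Dixon's criterion for 4 values, in 7 of 86 sets of values examined; chance gives about 1 in 20. WT replicate 2 was high in Hspa5, at 1110.3 TPM against 728 to 788 in the other WT mice. WT replicate 1 was low in Spcs3, at 92.0 TPM against 101 to 102. In hSKP2-KI, replicate 1 was high in Creld2, at 413 TPM against 237 to 263, and in the folding genes per 1000 TPM of secretory products, at 24.5 against 21.0 to 21.1. The hSKP2-KI replicate 2 was low in Pdia3, at 539 TPM against 624 to 638, and in Calr, at 1066 TPM against 1391 to 1432. The hSKP2-KI replicate 4 was low in Herpud1, at 365 TPM against 467 to 479.8.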

How the results depend on the processing

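The number of members called higher, 19 of 40, was 2 after median-ratio scaling and 3 both after quantile normalization and without the 20 most abundant genes, 12 to 23 with a library left out, and 13 without the filter on low values, where Hspa5 (adjusted p = 0.0594), Ddit3 (0.0768), Derl2 (0.0593) and Sec61b (0.102) were among those lost. The number called lower, 0 (0 with any library left out), was 1, Ssr4, after quantile normalization and without the 20 most abundant genes. After median-ratio scaling the 2 calls became 0 to 3 with a library left out and 1 with the replicate block, and the 0 lower calls became 0 to 1 and 2 (Eif2ak3 and Ssr4). In the other pathway lists the 50 higher and 5 lower genes became 3 and 14 after median-ratio scaling, 2 and 11 after quantile normalization, 2 and 12 without the 20 most abundant genes, 37 and 4 without the filter, and 24 to 59 and 4 to 5 with a library left out. The difference in secretory share was -10.2 percentage points for Sbp, Sbpl and Spink1 only and -10.1 to -8.56 with a library left out. With the replicate block it was -9.35, with p = 0.125 in an exact sign-flip permutation test, the smallest that 4 pairs allow.

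Signs were followed for the 22 tested members given in full by the rule above, which leaves out P4hb and Calr. Under median-ratio scaling, quantile normalization and without the 20 most abundant genes, the sign of the log2 fold change turned for Ern1 (-0.21, -0.19, -0.20), Atf6 (-0.21, -0.19, -0.19), Xbp1 (-0.063, -0.046, -0.041), Atf4 (-0.18, -0.16, -0.16) and Edem1 (-0.042, -0.0024, -0.021). With single libraries left out it also turned for Ern1 (range -0.13 to 0.20), Atf6 (-0.039 to 0.16) and Eif2ak3 (-0.11 to 0.048). None of these turned values was called. Of the other 18 members, 11 turned under all 3 scalings and 4 with a library left out. A lower pseudocount changed no call among the named members. Whether the replicate numbers pair the mice is not stated in the sources used here. Correlations across genes between mice of the same number were 0.22, -0.11, 0.17 and -0.01. Of the samples, 4 of 8 correlated best with their own number, so these values do not settle it. The replicate block left the 19 calls at 19. Depth cannot be read from TPM, so precision rests on 4 mice per genotype, and the printed intervals give the changes that the values still allow.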

Other observations

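Genes that act just before and after the ER were read in the same way. Of 35 tested genes of ER to Golgi transport, 5 were higher and 0 lower with TPM as deposited, beside 32.7% and 1.23% of all genes. Their median log2 fold change was 0.13, below that of the median gene (0.23). After median-ratio scaling 0 were higher and 1, Preb, was lower (-0.30, limma adjusted p = 0.0414). Preb, which helps form transport vesicles at the ER, was named after its value was seen.

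Of 15 chaperones of the cytosol and mitochondria, 9 were higher and 0 lower as deposited, beside 32.7% and 1.23% of all genes. Their median was 0.30 as deposited and 0.04 after scaling. Bag3, a co-chaperone of Hsp70 in selective autophagy, was the one called on both scales. It was at 25.6, 32.5, 27.7 and 28.2 TPM in WT and at 38.9, 42.8, 43.4 and 48.5 TPM in hSKP2-KI, with no overlap, a log2 fold change of 0.59 (adjusted p = 0.00245) as deposited and 0.33 (adjusted p = 0.0178) after scaling.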
